A study of Mus musculus with 2 samples.

Results

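The MHC class I presentation genes followed here are H2-K1, H2-D1, B2m, Tap1, Tap2, Tapbp, Nlrc5, Psmb8, Psmb9 and Erap1. They were chosen by symbol, each matched 1 row of the count matrices, and they make up 10 of 31055 features. Their UMIs (unique molecular identifiers, which count captured RNA molecules) were read in single cells of mouse medulloblastoma. The tumours arose in mice of genotype Math1-Cre;SmoM2fl/fl, whose cerebellar granule cell precursors express SmoM2 through Math1-Cre; SmoM2 is a Smoothened mutant that keeps SHH signalling on. 1 library was made after FLASH proton irradiation, in which protons arrive at a very high dose rate, and 1 library after standard proton irradiation. Both libraries carry the same genotype and both were irradiated, so no unirradiated tumour enters. The dose stands as 5 Gy in the sample labels and as 10 Gy in the design text, a conflict that the files do not settle. Neither the interval between irradiation and harvest nor the number of mice behind a library is stated in the labels.

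The FLASH library listed 14269 barcodes with 63178900 UMIs and the standard library 12867 barcodes with 55532202 UMIs. After filters and removal of likely doublets, 9506 and 7888 cells were kept. The 2 libraries shared 46 barcode sequences, of which 22 passed the filters in both. Cells were grouped without the class I genes, so that levels by class were not used to form the classes, and every type name rests on marker genes and stands for cells like that type. Tumour-lineage cells (granule neuron progenitors and differentiating granule neurons) numbered 7747 and 6401, with a median of 5605 and 6099 UMIs. Myeloid cells (microglia, macrophages, monocytes and myeloid cells of no single type) numbered 283 and 277, with medians of 6007 and 5978 UMIs. Endothelial cells numbered 50 and 33, and cells of the oligodendrocyte lineage 150 and 108. Astrocytes were too few for comparison, with 16 and 6 cells. With 1 library per irradiation mode there is no replicate, no test was made, and library and mode cannot be told apart. All intervals are at 95% and cover counting error only. Levels are counts per 1000000 UMIs of a class (CPM).

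MHC class I molecules show short peptides from inside the cell to CD8 T cells. Each is built of a polymorphic heavy chain and the invariant light chain B2m, and it is loaded in the endoplasmic reticulum with peptides that the proteasome cuts and the TAP pump imports. Neurons and their precursors are known for low class I levels, whereas microglia, macrophages and lymphocytes carry much of it, and interferons raise the whole set through Nlrc5 and IRF factors.

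The upstream DNA of the heavy chains and the light chain shows the shared control elements for which the family is known, and 2 stretches from each of H2-K1, H2-D1 and B2m are given for that reason. They were read from the RefSeq promoter table of build GRCm38.p6, in which 8 of the 10 members had an entry; Tap2 and Nlrc5 had none. In the first set the capitals mark an NF-kB-type match, GGGA and CC with any 4 bases between them, and an interferon-type match, TTTCNNTT, on either strand. NF-kB-type matches on both strands overlap in all 3 genes.
H2-K1: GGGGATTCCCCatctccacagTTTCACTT
H2-D1: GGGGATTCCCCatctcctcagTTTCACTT
B2m: AACTGAAAatGGGAAAGTCCC
They lie at chr17:34000430-34000458 on the minus strand, chr17:35262923-35262951 on the plus strand and chr2:122147550-122147570 on the plus strand. The H2-K1 and H2-D1 stretches were identical at 28 of 29 bases, and the motifs stand in the opposite order in B2m. The H2-D1 stretches lie upstream of the RefSeq start but within the gene as annotated in GENCODE M21, where it starts 364 bases earlier.

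In the second set the capitals mark TGACG, the core of the X2 box, and ATTGG, the reverse of the Y box core CCAAT.
H2-K1: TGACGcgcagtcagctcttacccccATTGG
H2-D1: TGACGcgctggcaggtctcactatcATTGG
B2m: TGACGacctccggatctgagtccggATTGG
They lie at chr17:34000359-34000388 on the minus strand, chr17:35262993-35263022 on the plus strand and chr2:122147609-122147638 on the plus strand. In each the cores were 20 bases apart. The bases of this stretch were identical between H2-K1 and H2-D1 at 23 of 30 positions, between H2-K1 and B2m at 13, and between H2-D1 and B2m at 12. The spaced pair was present in 3 of the 8 members searched and in 30 of 32536 promoters (0.0922%). Taken singly, the motifs were found within 250 bases upstream in 21.3% (interferon-type), 17.7% (NF-kB-type), 17.9% (TGACG) and 33.8% (CCAAT) of promoters, and all 4 together in 0.200%. A match describes letters, not a bound site, and the motifs were picked with these sequences in view.

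The members lie in few places of the genome (GENCODE M21, GRCm38, with the gene IDs of the files). H2-K1 spans chr17:33996017-34000347 on the minus strand and H2-D1 chr17:35262730-35267499 on the plus strand. Between them lie Psmb9 (chr17:34181987-34187764, minus strand), Tap1 (chr17:34187553-34197225), Psmb8 (chr17:34197721-34201454) and Tap2 (chr17:34203527-34216321), the last 3 on the plus strand. Psmb9 and Tap1 overlap head to head at their starts. Tapbp lies nearby at chr17:33915899-33929292, while B2m (chr2:122147686-122153083), Nlrc5 (chr8:94434356-94527272) and Erap1 (chr13:74639568-74693201) lie on other chromosomes. All 10 are protein-coding genes. Over the last 500 bases of their transcripts, where 3′ libraries read, 2 of 1323 windows of 90 bases in H2-K1 (0.151%) were shared with H2-D1, H2-Q1, H2-Q6 or H2-Q7, and the other 9 members shared none with another gene.

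All 10 members were higher in myeloid than in tumour-lineage cells by at least 2 times in both libraries. Among all genes with at least 100 UMIs over both classes, 13.6% were that much higher in the FLASH library and 13.6% in the standard library. The 7 members that reached 100 UMIs had a median log2 ratio of 7.63 in FLASH and 5.94 in standard, against -0.86 and -0.83 over all genes tested. These medians are not over the same 7 genes, since Tap1 reached 100 UMIs in FLASH alone and Tap2 in standard alone, and so they are not compared between the libraries. The margin was not alike across members: it ran from Erap1, at 13.6 times in FLASH and 14.0 times in standard, to Psmb8 in FLASH, at 794 times, and to Psmb9 in standard, at 656 times. Psmb8 was at 544 times in standard.

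Among the presenting chains, H2-K1, a classical heavy chain, had 884 CPM (1655 UMIs) in FLASH and 708 CPM (1268 UMIs) in standard myeloid cells. In tumour-lineage cells it had 1.76 CPM (80 UMIs, 1.40 to 2.19) in FLASH and 1.45 CPM (58 UMIs) in standard. Myeloid cells were thus 499.7 times higher in the FLASH library (402 to 637) and 485 times higher in the standard library (375 to 647). H2-D1, the other classical heavy chain listed, had 1407 and 1244 CPM in FLASH and standard myeloid cells and 30.5 and 32.6 CPM in FLASH and standard tumour-lineage cells. Its myeloid excess was 46.2 times (43.2 to 49.3) and 38.2 times (35.7 to 40.9), so the intervals of the 2 heavy chains did not overlap in either library. B2m, which every class I heavy chain needs to reach the surface, had 1695 and 1764 CPM in FLASH and standard myeloid cells. In tumour-lineage cells B2m had 28.0 and 28.8 CPM, a difference of 60.5 and 61.3 times from myeloid cells.

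The mix of heavy chains therefore differed between classes. H2-K1 gave 5.46% (4.35 to 6.75) of the H2-K1 and H2-D1 UMIs of tumour-lineage cells in FLASH and 4.26% (3.25 to 5.47) in standard. In myeloid cells the share was 38.6% and 36.3%, in endothelial cells 28.9% and 43.4%, and in oligodendrocyte lineage cells 45.3% and 28.6%. T or NK cells, with 25 and 19 cells, had 52.1% and 50.3%. Low shares outside the tumour were seen in neutrophils, at 15.5% (7.35 to 27.4) in FLASH and 16.3% (7.32 to 29.7) in standard. Oligodendrocyte precursors had 37.4% (28.5 to 46.9) in FLASH and 15% (7.998 to 24.7) in standard. Progenitors had 5.44% and 4.30% and differentiating cells 5.49% and 4.18%, so the low share was common to both stages of the tumour lineage.

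The immunoproteasome subunits followed the pattern of H2-K1. Psmb8, which replaces Psmb5 in the immunoproteasome, had 393 CPM (735 UMIs) and 305 CPM (547 UMIs) in FLASH and standard myeloid cells, against 0.48 and 0.55 CPM in tumour-lineage cells (22 UMIs each). Psmb9, which replaces Psmb6, had 95.6 and 89.9 CPM in myeloid cells, against 0.15 CPM (7 UMIs) in FLASH and 0.12 CPM (5 UMIs) in standard tumour-lineage cells. Its myeloid excess was 582 times (295 to 1568) in FLASH and 656 times (302 to 2246) in standard. Of the 8 standard proteasome genes listed, which include Psmb5 and Psmb6, 0 were at least 2 times higher in myeloid cells in either library. Over all genes tested the share was 13.6% in each library. The median log2 ratio of the 8 was -0.66 in FLASH and -0.74 in standard, against -0.86 and -0.83 over all genes tested.

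The transporter and its partners stood lower in the tumour too, with smaller margins for Tap2 and Tapbp. Tap1 had 49.7 and 46.9 CPM in FLASH and standard myeloid cells, against 0.24 CPM (11 UMIs) and 0.22 CPM (9 UMIs) in tumour-lineage cells. Tap2, with which Tap1 forms the peptide pump, had 29.9 and 36.9 CPM in FLASH and standard myeloid cells, against 0.95 CPM (43 UMIs) and 0.85 CPM (34 UMIs) in tumour-lineage cells. The myeloid excess was 198 times (109.7 to 426) in FLASH and 199 times (105 to 472) in standard for Tap1, and 31.6 times (20.9 to 48.2) and 43.1 times (28.3 to 67.7) for Tap2, so the pump subunits differed in their margin beyond counting error. Tapbp (tapasin), which holds the heavy chain at the pump, had 138 and 149 CPM in FLASH and standard myeloid cells, against 2.49 and 3.35 CPM in tumour-lineage cells. Erap1, which trims peptides in the endoplasmic reticulum, had 18.2 and 15.6 CPM in FLASH and standard myeloid cells, against 1.34 and 1.12 CPM in tumour-lineage cells, the smallest margin of the 10. Nlrc5, the transcriptional activator of class I genes, had 9.08 CPM (17 UMIs) and 7.82 CPM (14 UMIs) in myeloid cells. In tumour-lineage cells 2 UMIs and 1 UMI of Nlrc5 were found in all, and the ratio had wide intervals of 49.0 to 1843 and 47.6 to 13228.

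**Figure D1:**
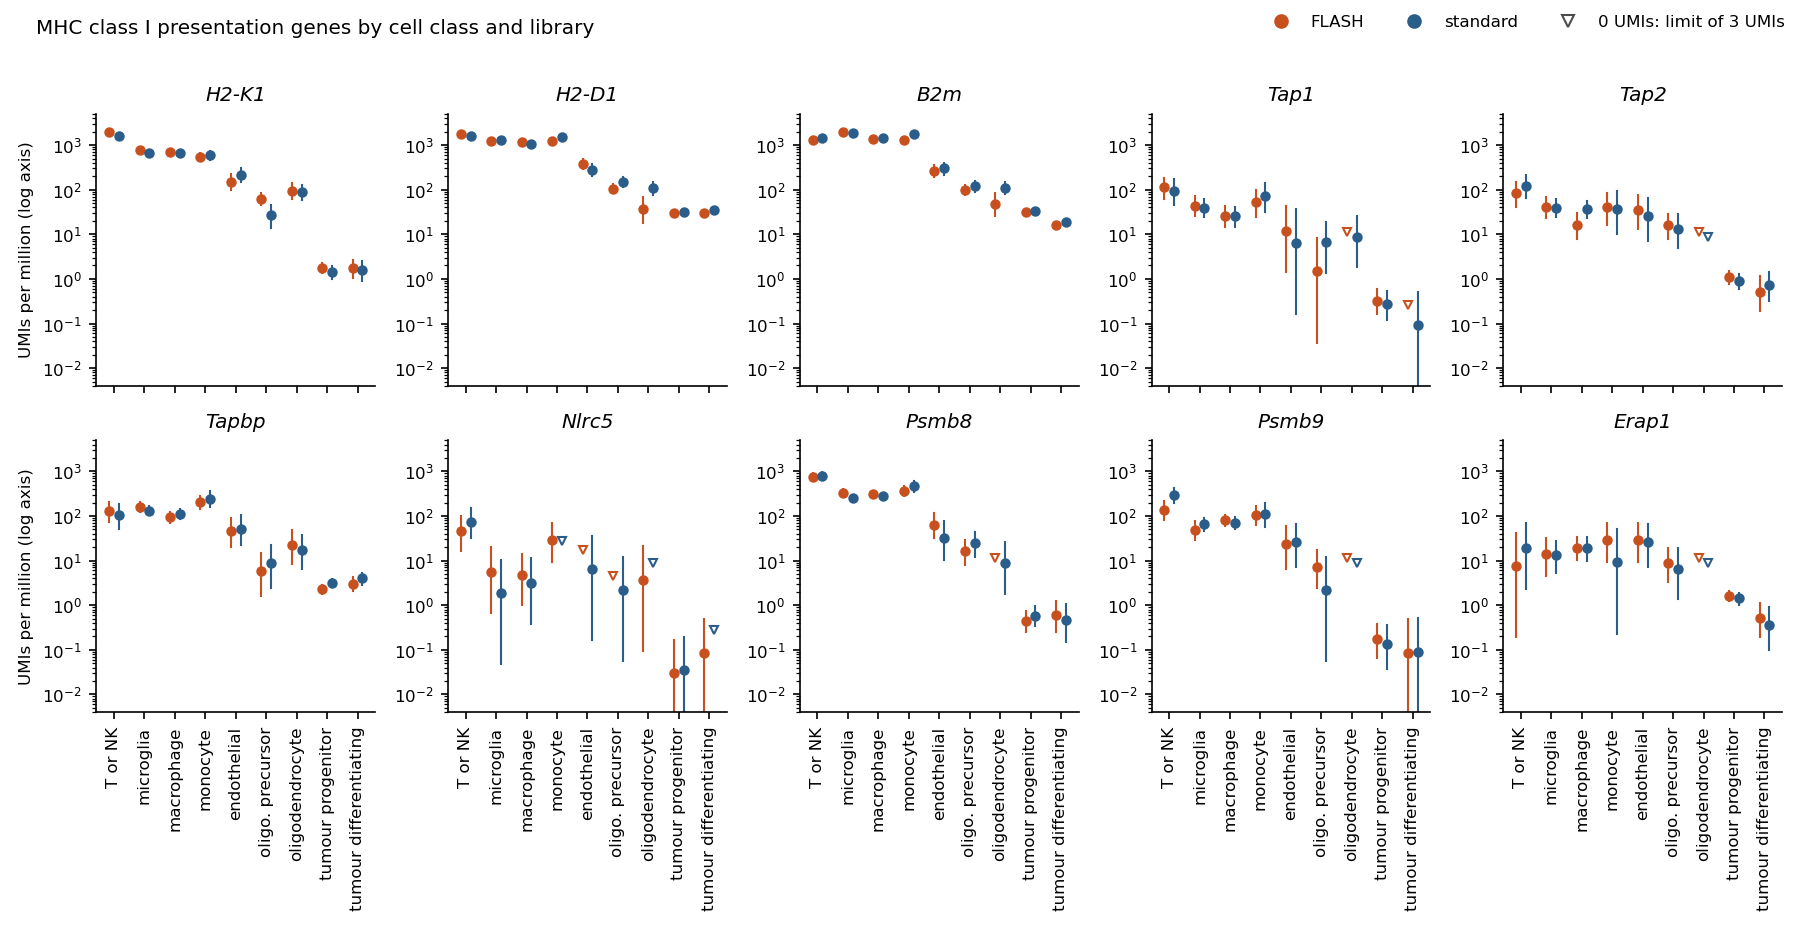
Level of each gene in CPM (log axis) in 9 cell classes, with FLASH in orange left of standard in blue. Bars are 95% counting intervals cut at the lower edge of the axis, and triangles mark the limit that 0 UMIs allows (3 UMIs per class and library). H2-K1 stands at 1.76 and 1.45 CPM in tumour-lineage cells as a whole, far below its level in immune and glial classes, while H2-D1 stands at 30.5 and 32.6 CPM and B2m at 28.0 and 28.8 CPM.

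The plot of levels by class shows immune cells at the top for most genes, endothelial cells below them, and oligodendrocyte lineage cells between endothelial and tumour-lineage cells. T or NK cells had the highest H2-K1 level of these classes in both libraries, 1965 and 1597 CPM. Their Psmb8 levels of 758 and 798 CPM lay above those of microglia, macrophages and monocytes, where Psmb8 ran between 248 and 473 CPM. Nlrc5 had 45.0 CPM (6 UMIs) and 75.1 CPM (8 UMIs) in T or NK cells, and its interval overlapped that of monocytes. Erap1 did not separate T or NK cells from the other immune classes.

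Not every class lay above the tumour for every member. In endothelial cells 8 of 10 members were at least 2 times higher than in tumour-lineage cells in both libraries. Only members with more than 3 UMIs were counted as higher. Tap1 and Nlrc5 were the exceptions, with 2 UMIs or fewer each. Under the stricter limit of 100 UMIs over both classes, 4 of 4 members in FLASH and 3 of 3 in standard were that much higher. Over all genes under this stricter limit the share was 13.9% in FLASH and 13.1% in standard. H2-K1 had 152 CPM in FLASH and 215 CPM in standard endothelial cells, against 1.76 and 1.45 CPM in tumour-lineage cells, and H2-D1 had 373 and 280 CPM, against 30.5 and 32.6 CPM. B2m had 268 and 299 CPM, which was 9.68 times (6.98 to 12.9) and 10.5 times (7.57 to 14.0) its tumour-lineage level. These are few UMIs in few cells: the 5 richest cells held 42.3% of the H2-K1 UMIs in FLASH and 72.7% in standard. Without those cells the count of members dropped to 3, because few UMIs were left.

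In oligodendrocyte lineage cells 6 of 10 members were at least 2 times higher in both libraries, namely H2-K1, H2-D1, B2m, Tap2, Tapbp and Psmb8. Under the stricter limit of 100 UMIs over both classes, 4 of 4 members were that much higher in each library. Over all genes under this stricter limit the share was 17.7% in FLASH and 16.2% in standard. H2-K1 had 71.6 CPM (68 UMIs) in FLASH and 52.8 CPM (42 UMIs) in standard, which was 40.7 times (29.0 to 56.9) and 36.5 times (23.9 to 55.1) the tumour-lineage level. H2-D1 was 2.85 and 4.07 times higher and B2m 3.02 and 4.04 times higher. The H2-K1 ratio lay above those of H2-D1 and B2m with no overlap of the intervals. A few cells carried much of it, since the 5 richest cells held 54.4% of the H2-K1 UMIs in FLASH and 64.3% in standard, and 1 standard cell alone had 19 of the 92 B2m UMIs. Leaving those cells out, H2-K1 still had 35.5 and 21.2 CPM, but only H2-K1 and H2-D1 kept a count above 3 UMIs with a ratio of at least 2 times. The summed level of 11 myeloid marker genes in this class was 46.3 CPM in FLASH and 16.3 CPM in standard, against 37645 and 37337 CPM in myeloid cells, and its part in the result was not tested.

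RNA released by broken cells can give UMIs in droplets of other cells, so the tumour level of each member was set beside that of 11 myeloid marker genes (C1qa, C1qb, C1qc, Csf1r, Fcer1g, Tyrobp, Aif1, Ctss, Lyz2, Laptm5 and Cd14). In tumour-lineage cells those 11 genes stood at 0.0449% to 0.123% of their myeloid level in FLASH, with a median of 0.0951%, and at 0.0362% to 0.168% in standard, with a median of 0.0844%. None of the 11 was at 0, and their summed tumour-lineage level was 31.9 CPM in both libraries. Erap1 stood far above this range, at 7.38% and 7.19% of its myeloid level, as did Tap2 (3.16% and 2.31%), H2-D1 (2.17% and 2.62%), Tapbp (1.80% and 2.25%) and B2m (1.65% and 1.63%). Tap1 was at 0.49% and 0.48%. Psmb8 lay close to the range of the marker genes, at 0.123% and 0.180%, and so did Psmb9, at 0.161% and 0.139%. H2-K1, at 0.199% and 0.205%, lay somewhat above it. Nlrc5 was at 0.48% and 0.32%, on 2 UMIs in FLASH and 1 in standard. The tumour-lineage levels of Psmb8 and Psmb9 cannot be told from such background at this depth. The markers cover free RNA of myeloid cells alone, but other classes held class I RNA too. T or NK cells had H2-K1 at 1965 CPM in FLASH and 1597 CPM in standard. A level somewhat above the marker range, as for H2-K1, therefore cannot be assigned to the tumour cells themselves.

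**Figure D2:**
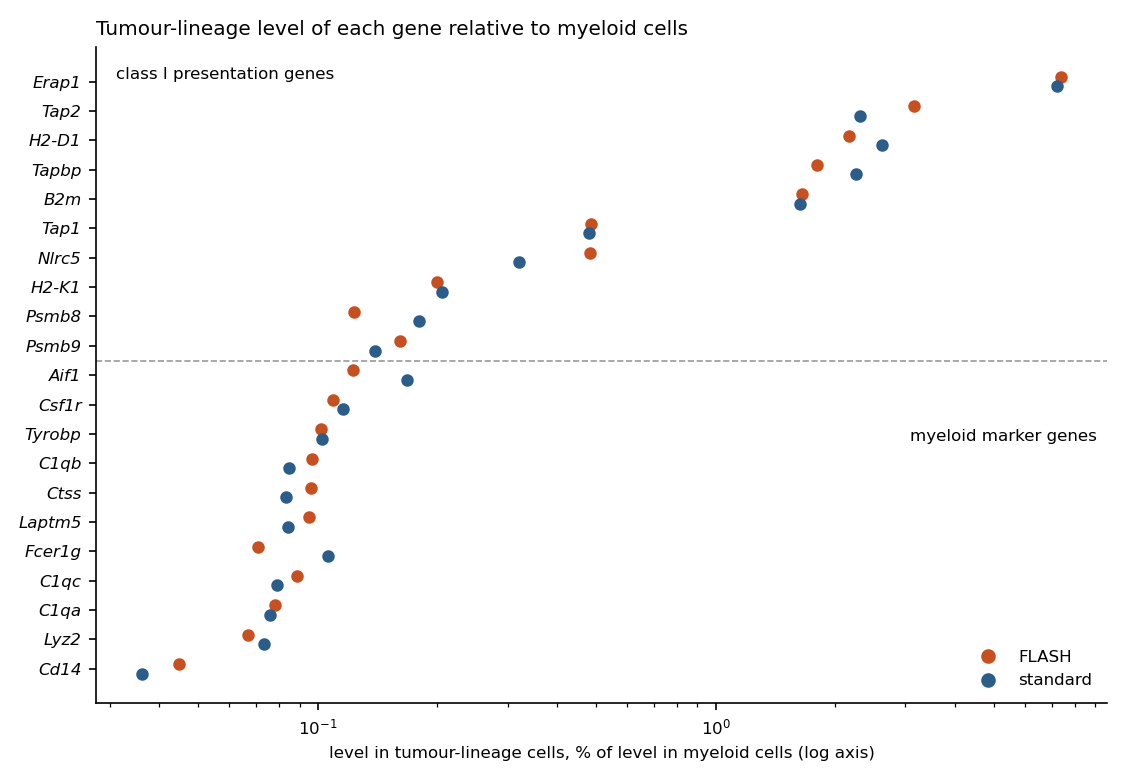
Level in tumour-lineage cells as a percentage of the level in myeloid cells (log axis) for the class I genes (top) and 11 myeloid marker genes (bottom), FLASH in orange and standard in blue. Erap1, Tap2, H2-D1, Tapbp and B2m sit at 1.63% or more, whereas Psmb8 and Psmb9 reach the marker genes, whose medians are 0.0951% and 0.0844%.

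The members were also read in tumour-lineage cells in which no UMI of the 11 marker genes was seen, 6780 of 7747 cells in FLASH and 5519 of 6401 in standard. H2-D1 had 30.5 and 32.7 CPM there and B2m 27.2 and 29.1 CPM, close to the values in all tumour-lineage cells. H2-K1 had 1.53 and 1.38 CPM, and its share of the heavy-chain UMIs was 4.77% (3.66 to 6.09) and 4.04% (2.99 to 5.34). Psmb8 had 0.31 CPM (12 UMIs) and 0.44 CPM (15 UMIs). With marker genes at 31.9 CPM and median depths of 5605 and 6099 UMIs, most cells show no marker UMI even where free RNA is present. Values close to those of all tumour-lineage cells were therefore likely in advance, and this subset cannot separate free RNA from the cells' own. Cells thinned to 2000 UMIs each gave a related view. Of 23 such FLASH cells with an H2-K1 UMI, 7 (30.4%) also held a marker UMI, against 5.04% of cells without one; in standard these were 3 of 14 cells (21.4%) and 5.48%. For H2-D1 the shares were 5.58% against 5.10% in FLASH and 6.87% against 5.42% in standard. H2-K1 UMIs in the tumour lineage thus sat with marker UMIs more often than H2-D1 UMIs did, on 10 cells in all; the part of free RNA or of unremoved doublets in this was not tested.

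Per cell, class I RNA was scarce in the tumour lineage. Of tumour-lineage cells, 70.2% in FLASH and 67.6% in standard held no UMI of any member, and the richest cells held 14 and 9. At 2000 UMIs per cell, H2-D1 was seen in 6.38% of 7022 FLASH cells and 6.89% of 5708 standard cells. B2m was seen in 5.35% and 5.47% and H2-K1 in 0.328% and 0.245%. Without thinning the shares were 15.6% for H2-D1 and 14.4% for B2m in FLASH. In myeloid cells thinned alike, B2m was seen in 93.2% and 91.9%, H2-D1 in 84.8% and 83.8% and H2-K1 in 72.6% and 64.0%. Thinning left out 725 and 693 tumour-lineage cells and 46 and 55 myeloid cells as too shallow.

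Within the tumour lineage, B2m and H2-D1 varied between clusters in different ways. Among the 8 clusters plotted, B2m was highest in a progenitor cluster led by Hes1, a Notch and SHH target, at 44.0 CPM (38.2 to 50.6) in FLASH and 40.9 CPM (35.3 to 47.3) in standard. It was lowest in the postmitotic cluster led by Neurod1 and Grin2b, at 9.49 CPM (39 UMIs, 6.75 to 12.97) in FLASH and 8.62 CPM (33 UMIs, 5.94 to 12.1) in standard. Against all other tumour-lineage cells the log2 ratio of B2m was 0.75 (0.52 to 0.97) and 0.59 (0.35 to 0.82) in the Hes1-led cluster. In the Neurod1-led cluster it was -1.64 (-2.15 to -1.19) and -1.82 (-2.39 to -1.34). The earlier postmitotic cluster led by Klhl35, with 17.6 CPM in FLASH and 24.5 CPM in standard, lay between them. It was below every plotted progenitor cluster in FLASH, whereas in standard the Prc1-led progenitor cluster was lower still, at 22.5 CPM (17.5 to 28.6), with overlapping intervals.

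H2-D1 did not follow B2m in the Neurod1-led cluster. It had 34.1 CPM in FLASH and 37.4 CPM in standard, at log2 ratios of 0.18 (-0.09 to 0.43) and 0.23 (-0.04 to 0.47) over the other tumour-lineage cells. B2m gave 21.8% of the B2m and H2-D1 UMIs in this cluster in FLASH and 18.8% in standard, against 51.1% and 50.8% in all progenitors. Among the 8 clusters plotted, H2-D1 was instead lowest in those of G2 and mitosis. The Cdc20-led cluster had 19.3 CPM (15.7 to 23.4) in FLASH and 17.4 CPM (13.8 to 21.7) in standard, and the Prc1-led cluster had 23.2 and 19.2 CPM. The log2 ratios over other tumour-lineage cells were -0.72 (-1.04 to -0.43) and -0.97 (-1.33 to -0.65) for the Cdc20-led cluster, and -0.41 (-0.77 to -0.09) and -0.80 (-1.21 to -0.43) for the Prc1-led cluster. In S phase H2-D1 stood higher, at 33.8 and 37.7 CPM at S entry and 35.6 and 38.3 CPM in the histone-rich cluster. The clusters were formed without B2m and H2-D1. A shallow cluster that is not plotted, led by Pcp4 and Tubb3, with 396 cells in FLASH and 404 in standard and median depths of 1438.5 and 1497.5 UMIs, differed between the libraries. Its H2-D1 level was 9.39 CPM (6 UMIs) in FLASH, below the G2 and mitosis clusters, and 28.7 CPM (20 UMIs) in standard, at log2 ratios over other tumour-lineage cells of -1.60 (-3.16 to -0.59) and -0.15 (-0.90 to 0.45). B2m in it had 25.0 CPM (16 UMIs) in FLASH and 15.8 CPM (11 UMIs) in standard, at -0.12 (-0.98 to 0.54) and -0.82 (-1.89 to -0.03).

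**Figure D3:**
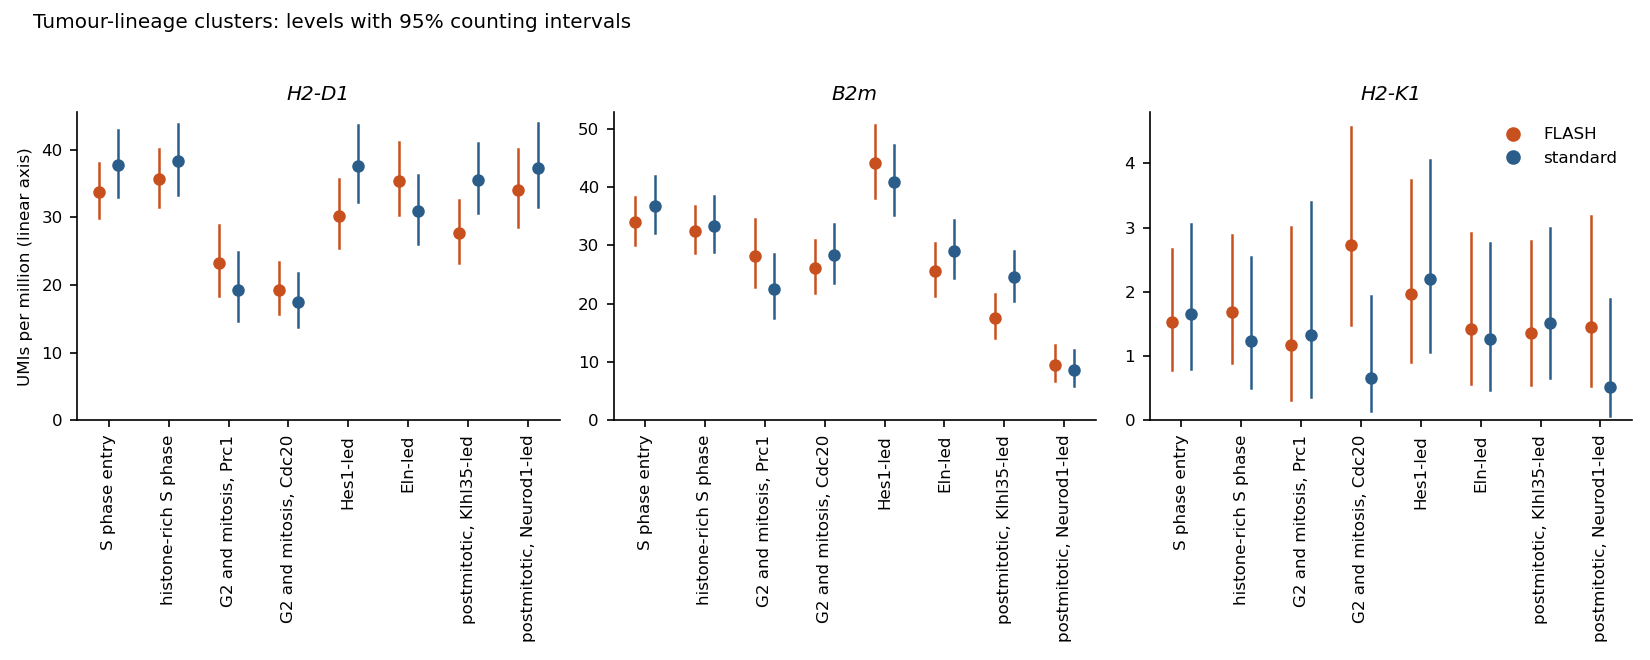
H2-D1, B2m and H2-K1 in 8 tumour-lineage clusters, in CPM on linear axes, with 95% counting intervals; FLASH is orange and left of standard in blue. B2m runs from 44.0 CPM in the Hes1-led cluster to 9.49 CPM in the Neurod1-led cluster in FLASH, H2-D1 dips in the G2 and mitosis clusters, and H2-K1 stays below 2.72 CPM elsewhere than in the Cdc20-led cluster.

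Among the rarer members, Erap1 had 2.63 CPM (12 UMIs) and 3.08 CPM (14 UMIs) in the Hes1-led cluster, against 0.24 and 0.26 CPM in the Neurod1-led cluster with 1 UMI each. Over all stages Erap1 was higher in progenitors, with 1.62 CPM in FLASH and 1.41 CPM in standard, than in differentiating cells, with 0.52 and 0.36 CPM. Tap2 had 1.97 and 2.20 CPM in the Hes1-led cluster on 9 and 10 UMIs. H2-K1 had between 0.52 and 2.72 CPM in the 8 plotted clusters on at most 14 UMIs each. The Cdc20-led cluster gave 2.72 CPM (1.49 to 4.57) in FLASH and 0.66 CPM (0.14 to 1.94) in standard, and no order of the clusters in H2-K1 could be read. The small cluster led by Ren1 and Meis2, with 177 and 45 cells, had H2-D1 at 38.4 CPM (27.3 to 52.5) and 57.6 CPM (32.9 to 93.6).

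The myeloid types differed less than the lineages did. H2-K1 had 778 and 659 CPM in microglia, 711 and 660 CPM in macrophages and 553 and 592 CPM in monocytes, each in FLASH and standard. B2m had 1922 and 1857 CPM in microglia, against 1399 and 1453 CPM in macrophages, and these intervals did not overlap in either library. Of these 3 types Tapbp was highest in monocytes, at 204 CPM (142 to 283) and 246 CPM (162 to 357), against 92.6 and 111 CPM in macrophages. Microglia had 163 CPM (124 to 210) in FLASH and 133 CPM (103 to 167) in standard, and these intervals overlapped those of monocytes. A small myeloid cluster led by Ccl12, Isg15 and Ifit3, genes that interferon switches on, had 9 cells in FLASH and 8 in standard. Its Tap1 level was 199 CPM (95.5 to 366) in FLASH and 260 CPM (157 to 407) in standard, the highest of the myeloid clusters, and its H2-K1 level 2032 and 1096 CPM. A cluster led by Gpnmb, Lyz2 and Spp1, with 53 and 34 cells, had H2-K1 at 1368 and 1178 CPM in FLASH and standard. It stood below the interferon-gene cluster in FLASH, while in standard their intervals overlapped.

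Between the libraries the tumour-lineage cells differed little in class I RNA. The members summed to 66.0 CPM (2999 UMIs) in FLASH and 69.0 CPM (2762 UMIs) in standard, a log2 ratio of FLASH over standard of -0.07 (-0.14 to 0.01). Of the 5 members with at least 100 UMIs, 0 were 1.5 times apart in either direction, as against 0.886% of 11965 genes tested, and their median log2 ratio was -0.04, against 0.0032 for all. H2-D1 had a log2 ratio of -0.10 (-0.21 to 0.01) and B2m of -0.04 (-0.15 to 0.08), so for these chains a difference of 1.5 times lies outside the counting interval. H2-K1 was at 0.28 (-0.23 to 0.79) and Erap1 at 0.25 (-0.32 to 0.84), which the depth leaves unresolved. Tapbp stood lower in FLASH, 2.49 CPM (113 UMIs) against 3.35 CPM (134 UMIs), with a log2 ratio of -0.43 (-0.80 to -0.06) that is short of 1.5 times. The ratios of Tap1, Tap2, Psmb8, Psmb9 and Nlrc5 rest on 43 UMIs or fewer per library, and their intervals all span 0.

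The summed level was also compared by stage. Differentiating cells had 52.7 CPM in FLASH and 61.5 CPM in standard, at a log2 ratio of -0.22 (-0.38 to -0.06), whereas progenitors had 70.5 and 71.9 CPM, at -0.03 (-0.11 to 0.06). The Klhl35-led cluster gave 51.2 CPM in FLASH and 67.2 CPM in standard, at -0.39 (-0.63 to -0.16), and the Neurod1-led cluster 48.4 and 52.3 CPM, at -0.11 (-0.40 to 0.18). The difference between these ratios was not tested. The makeup of the differentiating cells also differed between the libraries. The cluster led by Ren1 and Meis2 held 177 FLASH and 45 standard cells, and a cluster led by Miat and Arpp21 held 266 and 427. The part of this in the ratio was not tested.

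In myeloid cells the members summed to 4720 CPM (8833 UMIs) in FLASH and 4368 CPM (7821 UMIs) in standard, a log2 ratio of 0.11 (0.07 to 0.16). Of 8 members with at least 100 UMIs, 0 were 1.5 times apart, against 3.28% of 4356 genes tested, and their median log2 ratio was 0.09, against 0.0033 for all. Psmb8 was at 0.36 (0.20 to 0.52), H2-K1 at 0.32 (0.21 to 0.43) and H2-D1 at 0.18 (0.10 to 0.26), each with an interval above 0 but short of 1.5 times, whereas B2m was at -0.06 (-0.13 to 0.01). The makeup of the myeloid cells differed between the libraries too. The Gpnmb-led cluster held 53 of 283 FLASH and 34 of 277 standard cells, and the shallowest cluster, at 0.26 of the median depth, held 50 and 76. With the clusters mixed in the same proportions the summed log2 ratio was 0.04, with each library clustered by itself it was -0.04, and with at most 5% mitochondrial UMIs it was 0.04. Within types it was 0.07 (-0.03 to 0.16) in microglia, 0.04 (-0.04 to 0.13) in macrophages, -0.29 (-0.46 to -0.12) in monocytes and 0.18 (0.11 to 0.25) in myeloid cells of no single type. The direction of the summed myeloid difference thus changed with the type and the grouping.

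**Figure D4:**
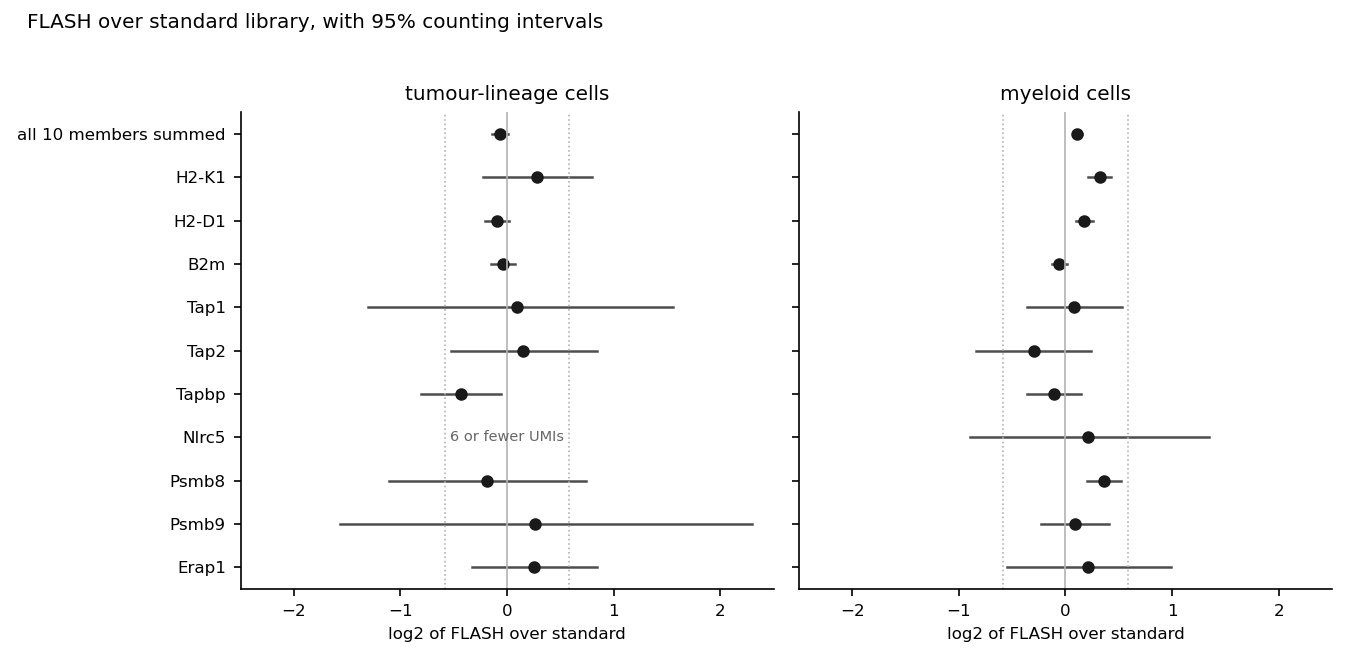
Log2 ratio of FLASH over standard for the 10 genes and their sum in tumour-lineage and myeloid cells, with 95% counting intervals; dotted lines mark 1.5 times in either direction, and Nlrc5 in tumour-lineage cells had too few UMIs to plot. The sums sit at -0.07 and 0.11, and in tumour-lineage cells Tapbp, at -0.43, is the single gene whose interval lies off 0.

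In endothelial cells the summed log2 ratio was 0.05 (-0.27 to 0.38), from 1004 CPM in FLASH and 969 CPM in standard. H2-D1 was the 1 member there with 100 UMIs, at 0.41 (-0.16 to 1.01); it was not 1.5 times apart, against 13% of the 407 genes tested. In oligodendrocyte lineage cells the members summed to 289.6 CPM in FLASH and 352 CPM in standard, a log2 ratio of -0.28 (-0.53 to -0.04). H2-D1 was lower in FLASH by over 1.5 times, at 86.3 CPM (82 UMIs) against 132 CPM (105 UMIs) and a log2 ratio of -0.61 (-1.05 to -0.18), 1 of 3 members tested. Of 3194 genes tested, 7.61% were 1.5 times apart and 3.07% were so in the lower direction. The intervals do not hold the spread between cells, which the few rich cells described above make large in this class.

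The wider pathway places these genes among their neighbours. Over all genes tested, 13.6% were at least 2 times higher in myeloid than in tumour-lineage cells in each library. That much lower were 45.9% in FLASH and 44.8% in standard. Of the 13 other class I heavy chains found in the files, 6 reached 100 UMIs in FLASH and 4 in standard. Of these, 4 and 2 were at least 2 times higher in myeloid cells, and 1 in each library was at least 2 times lower. The lower one, Cd1d1, which is named here after its values were seen and presents lipids, had 0.53 CPM (1 UMI) in FLASH and 1.68 CPM (3 UMIs) in standard myeloid cells, against 27.2 and 27.5 CPM in tumour-lineage cells. H2-M3, which presents formylated peptides, had 52.4 CPM in FLASH and 39.7 CPM in standard myeloid cells, against 0.04 and 0.05 CPM in tumour-lineage cells with 2 UMIs in each library; the log2 ratios were 9.90 (8.33 to 13.28) and 9.32 (7.73 to 12.71). H2-Q7, a chain of the Qa-2 group, had log2 ratios of 6.59 and 6.15, and H2-Q4 of 4.98 and 4.65. Of 13 peptide supply and loading partners, 4 in FLASH and 3 in standard were at least 2 times higher in myeloid cells and 1 was lower. Psmb10, the third subunit of the immunoproteasome, was at log2 3.13 and 3.15, with 17.3 and 15.6 CPM left in tumour-lineage cells, a smaller margin than that of Psmb8 or Psmb9. Tapbpl, a peptide editor related to tapasin, was at 2.34 and 3.07, and Psme1, a subunit of the proteasome activator, at 1.78 and 1.58.

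Of the 8 standard proteasome subunits, 1 was at least 2 times lower in myeloid than in tumour-lineage cells in FLASH and 3 in standard. Psmd11, a subunit of the regulatory particle, was at log2 -1.03 and -1.14, and Psma7, of the outer ring, at -0.79 and -1.04. Psmb7, a catalytic subunit, had 91.9 CPM in FLASH and 88.2 CPM in standard myeloid cells, against 181 and 177 CPM in tumour-lineage cells. Over all genes tested, 45.9% were at least 2 times lower in FLASH and 44.8% in standard, and 13.6% were at least 2 times higher in each library. All 7 interferon receptor and pathway genes tested were at least 2 times higher in myeloid cells in both libraries. The interferon-gamma receptor chains were among these 7. Socs1, an inhibitor of interferon signalling, had too few UMIs per library to be tested and stood at log2 4.30 and 4.01. Ifngr1 had 229 and 247 CPM in FLASH and standard myeloid cells, against 14.6 and 14.5 CPM in tumour-lineage cells. Ifngr2 had 156 and 150.2 CPM in myeloid cells, against 9.79 and 9.12 CPM in tumour-lineage cells. Of 16 regulators, 8 were higher in myeloid cells in both libraries, and 6 in FLASH and 5 in standard were lower. Irf8, a factor of myeloid cells, was at 7.13 and 7.08 and Irf1, an interferon-induced activator, at 4.64 and 5.01. Ezh2, the enzyme of a repressive histone methyl mark, ran the other way, with 29.9 and 22.9 CPM in FLASH and standard myeloid cells, against 249.8 and 229 CPM in tumour-lineage cells.

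Interferon pathway genes were set against the tumour lineage in endothelial and oligodendrocyte lineage cells too. In endothelial cells 6 of 7 such genes tested were at least 2 times higher in each library. Over all genes tested this held for 13.9% in FLASH and 13.1% in standard. Of the type I receptor chains, Ifnar2 was at log2 3.67 and 3.59 and Ifnar1 at 3.27 and 3.06. Irf1 was at 4.92 (3.67 to 5.84) in FLASH and 4.53 (3.08 to 5.54) in standard. In oligodendrocyte lineage cells 3 of 7 in FLASH and 2 of 7 in standard were that much higher, against 17.7% and 16.2% of all genes tested. The median log2 ratio of the 7 was 0.64 in FLASH and 0.69 in standard, against -0.01 and -0.08 over all genes. H2-T22, a chain seen by some gamma-delta T cells, was at 1.62 and 1.90 in these glial cells. Cd1d1 had 7.37 CPM (7 UMIs) in FLASH and 0 UMIs in standard oligodendrocyte lineage cells, against 27.2 and 27.5 CPM in tumour-lineage cells.

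In tumour-lineage cells 1 gene of these lists was 1.5 times apart between the libraries. It was 1 of 13 partners tested, beside 0 of 4 heavy chains, 8 standard subunits, 16 regulators and 7 interferon pathway genes. Over all 11965 genes tested the share was 0.886%. Tapbpl had 3.10 CPM (141 UMIs) in FLASH and 1.75 CPM (70 UMIs) in standard, a log2 ratio of 0.82 (0.40 to 1.26), the opposite direction to Tapbp. The other heavy chains named by the rule were H2-T23 at -0.28 (-0.47 to -0.09), H2-T22 at 0.24 (0.0024 to 0.47) and Mr1 at 0.16 (-0.0041 to 0.33). Of the partners, Psmb10 was at 0.15 (-0.01 to 0.30) and Hspa5, the chaperone BiP, at -0.13 (-0.16 to -0.10). The regulators Irf8 (-0.25), Irf1 (-0.20) and Ezh2 (0.12) and the receptors Ifnar2 (-0.17), Ifngr2 (0.10) and Ifnar1 (0.07) were nearer to 0 than 1.5 times, as were Psma7 (0.05), Psmd1 (0.04) and Psmd11 (0.04).

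In myeloid cells 1 gene of these lists was 1.5 times apart. Psme3, the activator subunit of nuclear proteasomes, was at 0.66 (0.06 to 1.29) on 63 UMIs in FLASH and 38 in standard. It was 1 of 12 partners tested, beside 0 of 4 heavy chains, 8 standard subunits, 10 regulators and 6 interferon pathway genes. Over all 4356 genes tested the share was 3.28%. The heavy chains H2-T22 (0.57, 0.10 to 1.06), H2-Q7 (0.57, 0.06 to 1.11) and H2-M3 (0.40, -0.05 to 0.86) were short of 1.5 times, and the interval of H2-M3 spanned 0. Irf1 (-0.57, -0.99 to -0.16) and Irf9 (-0.44, -0.88 to -0.01), which carry interferon signals, were short of 1.5 times in the other direction. Irf1 had 45.4 CPM (85 UMIs) in FLASH and 67.6 CPM (121 UMIs) in standard myeloid cells. The makeup of the myeloid clusters differed between the libraries, as given above, and its part in these values was not tested.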

How the data were processed

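The deposited matrices hold raw UMI counts per gene and barcode, which the authors generated on mm10 (per the submitters' processing notes) using Cell Ranger (6.1.2, per the file headers). Their annotation release is not given in the sources used. Per the labels' protocols, mice were perfused with PBS and EDTA, and tumours were digested with collagenase-II and DNase, passed through a mesh of 100 μm and run with 10x V3 chemistry. Of the matrices, the rows of the 10 genes and all totals were used as deposited.

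Barcodes with at least 500 genes and at most 10% mitochondrial UMIs were kept (10366 FLASH, 8461 standard). The automatic threshold of Scrublet (scanpy 1.11.5) called 0 cells in either library and so had not worked; the highest scores were removed at 0.8% per 1000 cells (860 and 573 cells). Cells were scaled to 10000 UMIs and clustered together (2000 variable genes without the class I lists, 30 components, 15 neighbours, Leiden resolution 1.0 with leidenalg 0.10.2). Types came from fixed marker lists, with naming cutoffs set after seeing the data; 1207 and 1025 cells stayed unnamed.

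UMIs were summed per class and library. Intervals at 95% are exact Poisson (levels), Clopper-Pearson (shares) and conditional binomial (ratios), all from the raw sums. The ratios themselves had 0.5 added to each sum, so at low counts a ratio and its interval are not on quite the same scale. A gene at 0 is limited at 3 UMIs. With 1 library per group, no count test was run; the interval code was tested on simulated data. All 10 members are named; from each other list the 3 genes with at least 100 UMIs and the largest absolute ratio are named, except 1 that is not reported here. H2-T10 and H2-L were not among the features. The members and lists were chosen with earlier results of these data known. The alternatives were other filters, doublets kept, thinning, other clusterings, the richest cells left out, mean per-cell shares, equal cluster mixes and marker-free tumour cells.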

Additional observations from a re-analysis of the deposited data

How the results depend on the processing

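Of 76 values of the main results under alternatives, 69 kept their direction and size. In tumour-lineage cells the summed log2 ratio of FLASH over standard stayed between -0.11 and -0.06 under all 13 alternatives. Of the members with at least 100 UMIs, 0 were 1.5 times apart in each. These were 5 members, but 4 with at most 5% mitochondrial UMIs and 2 after thinning. Members with fewer UMIs were not counted, and among them Psmb9, on 7 and 5 UMIs as reported, ran from 0.03 to 2.14. In myeloid cells the summed log2 ratio was 0.0397 with at most 5% mitochondrial UMIs, 0.0404 with the same mix of clusters and -0.0361 with each library clustered by itself, against 0.11 as reported, and the cause was not tested. Leaving out the shallowest or the interferon-gene myeloid cluster, both chosen after seeing the data, kept it above 0. The count of members higher in myeloid cells was 9 or 10 in all 12 alternatives. In endothelial cells it was 3 after thinning and 3 without the 5 richest cells, and in oligodendrocyte lineage cells 3 and 2. Fewer UMIs pass the limit of 3 there, but B2m in oligodendrocyte lineage cells was lost on its ratio when the richest cells were left out. In standard it kept 38 UMIs at 53.9 CPM, less than 2 times the 28.4 CPM of tumour-lineage cells treated alike. Of 255 values of single genes, 7 moved beyond their counting interval, all in myeloid cells, and 0 turned round beyond it. By sign alone, H2-D1, B2m and Tapbp in tumour-lineage cells stayed lower in FLASH in 13 of 13 alternatives, and Psmb9 stayed higher in 12 of 12. In myeloid cells H2-K1, H2-D1, Psmb8 and Erap1 stayed higher in 14 of 14, whereas B2m stayed lower in 14 of 14. The alternatives reuse the same 2 libraries and many of the same UMIs, so a kept sign is not independent support. No paired analysis was possible because each group has 1 library. Depth limits Tap1, Nlrc5, Psmb8 and Psmb9 in the tumour lineage, where 22 UMIs or fewer per library were found.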

Other observations

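The genes whose level ran most like B2m over 13 classes in 2 libraries (26 points, 12796 genes ranked by Pearson correlation of log2 of CPM plus 20) were Vamp8 (r = 0.957), Lgals9 (0.934), Cyba (0.928), Ucp2 (0.927) and Ifngr1 (0.924). Among the class I genes H2-D1 reached 0.950, Psmb8 0.942, H2-K1 0.935, Tapbp 0.927, Psmb9 0.874, Tap1 0.762 and Tap2 0.730, whereas Erap1 (0.442) and Nlrc5 (0.439) followed B2m least. In FLASH and standard myeloid cells Erap1 had 18.2 and 15.6 CPM and Nlrc5 9.08 and 7.82 CPM. These lie below the 20 that was added, which limits how far such genes can follow B2m on this scale. The points share libraries and depth, and these values are a description.

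Small classes outside the comparisons gave further levels. Neutrophils, with 21 and 14 cells, had H2-D1 at 1397 CPM in FLASH and 1549 CPM in standard, H2-K1 at 257 and 302 CPM, and Psmb8 at 199.5 and 227 CPM on 7 and 6 UMIs. Astrocytes, with 16 and 6 cells, had B2m at 101 CPM (9 UMIs) in FLASH and 598 CPM (18 UMIs) in standard. Their summed myeloid marker level was 45.0 CPM in FLASH and 2759 CPM in standard, and its part in the B2m value was not tested. Fibroblasts, with 7 and 5 cells, had a summed class I level of 502 CPM in FLASH and 1549 CPM in standard. Within the oligodendrocyte lineage, precursors had H2-K1 at 63.1 CPM (45.6 to 84.9) in FLASH and 26.5 CPM (13.7 to 46.3) in standard, and oligodendrocytes had 93.4 and 87.5 CPM.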
